A study of Homo sapiens with 6 samples.

Results

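The enzymes described here carry amino acids into central metabolism or carry their nitrogen away. They are serine dehydratase (*SDS*) and its relative *SDSL*, the argininosuccinate enzymes *ASS1* and *ASL*, the aminotransferase *AADAT*, glutamine synthetase (*GLUL*), the aldehyde dehydrogenases *ALDH5A1* and *ALDH4A1*, and proline dehydrogenase (*PRODH*). These 9 genes were picked out of the 20824 in the RNA-Seq table by symbol. They were selected on these same values, since *SDS* and *ASS1* stood low with both TBX3 isoforms, and so their differences from the control are described and not tested. All 9 were among the 12805 genes that averaged 0.5 RPKM or more across the libraries, RPKM being reads set relative to transcript length and to library size. *SDS* reached that mean through the control libraries alone. *PRODH* was under it in TBX3iso1 (0.274 RPKM) and just over it in TBX3iso2 (0.565 RPKM), so it also leaned on the control.

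The cells were 21NT, a human breast cancer line used as a model of ductal carcinoma *in situ*. They were stably transfected with empty pcDNA3.1 vector (EV) or with the same vector carrying TBX3iso1 or TBX3iso2. These are the splice isoforms of the T-box transcription factor TBX3. The clones that grew under G418 were pooled for each line. Each of the 3 lines gave 2 libraries, 6 in all. The sources do not say whether these came from separate cultures, so the spread between them, and every p-value, may be technical only. All 3 lines shared the plasmid backbone, G418 selection and a serum-containing αMEM medium with glutamine, non-essential amino acids, pyruvate, insulin, EGF and hydrocortisone. The transgene was therefore overexpressed on top of the line's own TBX3, and the table gives 1 *TBX3* value that does not separate the isoforms.

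Cells take nitrogen off amino acids by deamination or by transfer to 2-oxoglutarate, and the carbon skeletons that remain enter the tricarboxylic acid cycle or glycolysis. Ammonia is then fixed into glutamine or, in the liver, into urea through carbamoyl phosphate, citrulline and argininosuccinate. Outside the liver the argininosuccinate steps serve to make arginine from citrulline, and many tumours express little *ASS1* and depend on arginine from outside.

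The libraries held between 43176600 and 54512400 alignments. Replicate libraries correlated across the tested genes at a Pearson's r of 0.996 (EV), 0.994 (TBX3iso1) and 0.992 (TBX3iso2). *TBX3* measured 8.38 ± 0.199 RPKM (SD, n = 2) in EV, 12.3 ± 1.23 RPKM in TBX3iso1 and 16.5 ± 1.41 RPKM in TBX3iso2, and it passed the threshold used below with TBX3iso2. With TBX3iso1 its log2 fold change of 0.54 stayed under 1.5-fold, and it went past that under other scalings or without the second TBX3iso1 library (0.64). *TBX3* was also higher in TBX3iso2 than in TBX3iso1, by 0.43 on the log2 scale (limma, adjusted p = 0.0275), under 1.5-fold. Since each construct is a pooled line, isoform, *TBX3* level and pool cannot be told apart in the comparisons between the isoforms. All 6 mammary epithelial markers were detected, with summed levels of 2670 to 2770 RPKM in EV, 2100 to 2290 RPKM in TBX3iso1 and 2350 to 2590 RPKM in TBX3iso2. *CDH1* was called lower with TBX3iso1 (-0.70, limma, adjusted p = 0.00148). *KRT19* and *ERBB2* were called lower with TBX3iso2 (-0.72 and -0.75, adjusted p = 0.00212 and 0.000522). *EPCAM*, *KRT8* and *KRT18* were called with neither isoform. Since *SDS*, *ASS1* and *PRODH* are known from liver, hepatocyte markers were also summed, at 52.0 to 53.2, 62.1 to 69.0 and 48.2 to 52.1 RPKM in EV, TBX3iso1 and TBX3iso2. *SERPINA1* carried nearly all of that sum, and *ALB*, *APOA1* and *APOB* were near 0. Fibroblast marker sums were 4.6 to 4.86 RPKM in EV against 8.12 to 8.69 RPKM in TBX3iso1 and 7.14 to 7.58 RPKM in TBX3iso2, carried by *COL1A1*. Endothelial sums were 7.37 to 7.73 RPKM in EV against 1.34 to 1.36 RPKM and 1.26 to 1.46 RPKM, carried by *PECAM1* with *CDH5* and *VWF* near 0. Leukocyte sums were 43.2 to 44.2 RPKM in EV against 34.2 to 34.3 RPKM and 34.0 to 34.1 RPKM, carried by *CD68* with *PTPRC* and *CD3E* near 0. The part of these shifts in the values below was not tested, and in bulk RNA fewer cells of a type and less RNA per cell cannot be told apart.

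Of the 9 enzyme genes, 7 were lower in all 4 TBX3 libraries than in both EV libraries, and 2 (*ASL* and *AADAT*) were higher in all 4. Beside this, 44.1% of all genes tested were lower without overlap in TBX3iso1 and 37.2% in TBX3iso2, and 34.3% and 37.5% were higher without overlap. Since the low levels of *SDS* and *ASS1* were the reason for the choice, nothing is read from this count.

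**Figure D1:**
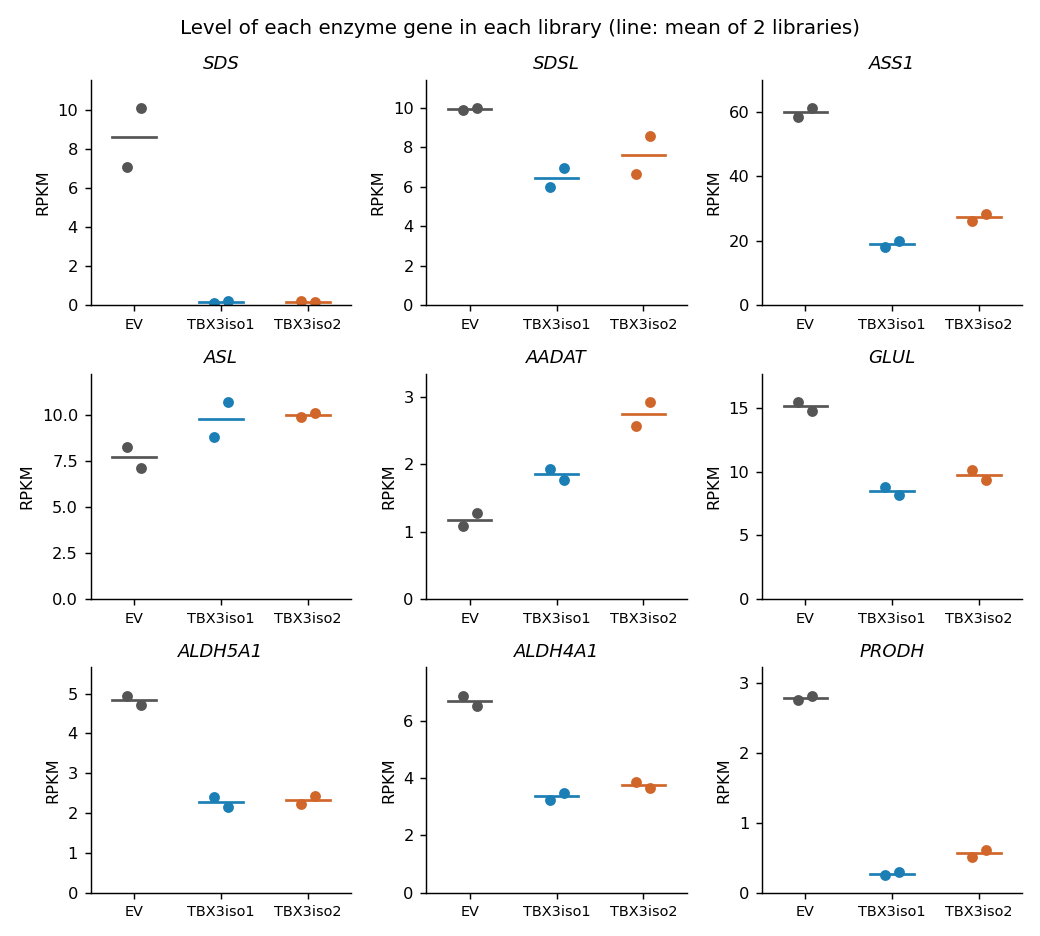
Level of each of the 9 enzyme genes (RPKM, linear axis from 0) in EV, TBX3iso1 and TBX3iso2; each point is 1 library and the line is the mean of 2. *SDS* stands at 7.09 and 10.1 RPKM in EV and at no more than 0.212 RPKM in any TBX3 library, while *ASL* and *AADAT* are the only panels in which the TBX3 libraries lie above EV.

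*SDS* encodes the cytosolic enzyme that deaminates serine to pyruvate and ammonia, and that also acts on threonine. Its level was 7.09 and 10.1 RPKM in the EV libraries, 0.137 and 0.204 RPKM in TBX3iso1, and 0.212 and 0.163 RPKM in TBX3iso2. Both EV libraries were high and all 4 TBX3 libraries were close to 0, and the libraries of the isoforms overlapped each other. The ratio of the line means was 50.3-fold lower in TBX3iso1 and 45.9-fold lower in TBX3iso2 than in EV. At the depth of these libraries this corresponds to 386 and 437 reads per kb of transcript in EV, 7.01 and 10.3 in TBX3iso1 and 10.8 and 7.05 in TBX3iso2, so the TBX3 levels rest on few reads. In EV, 52.4% of the tested genes had a lower mean than *SDS*. In TBX3iso1 and TBX3iso2 that share was 0.117% and 0.172%, but genes at such levels in all 3 lines were not among those tested, and *SDS* was there through EV alone. Between TBX3iso2 and TBX3iso1 the log2 difference was 0.09 with a 95% interval of -0.43 to 0.61 (limma, adjusted p = 0.826), an interval wide enough to hold a fold change of either sign.

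The gene runs on the minus strand of chromosome 12 (chr12:113830250-113864106, GRCh37, GENCODE v44lift37). RefSeq may place the start of *SDS* elsewhere than at the end of this span. The 250 bases before its RefSeq start are shown because *SDS* had the lowest level of the 9 in both isoform lines, and because TBX3 is known to bind T-box elements with the core AGGTGT. On GRCh38.p14 the window is chr12:113403888-113404137, minus strand, written from 5′ to 3′, with no letter in capitals because none of the motifs searched was in it.
SDS: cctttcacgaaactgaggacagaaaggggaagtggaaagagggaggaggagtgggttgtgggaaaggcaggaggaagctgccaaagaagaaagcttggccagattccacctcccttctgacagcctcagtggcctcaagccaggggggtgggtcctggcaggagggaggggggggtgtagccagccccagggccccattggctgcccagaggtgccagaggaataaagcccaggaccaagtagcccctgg
The window had a GC content of 61.2% against a median of 58.0% over 35116 RefSeq promoter windows of the same length. The motifs searched on both strands were the T-box core AGGTGT, the E-box CACGTG, the TATA letters TATAA and the GC box GGGCGG. They were present in 9.57%, 6.34%, 18.9% and 42.6% of those windows.

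*SDSL* encodes a serine dehydratase-like enzyme with related activity and lies next to *SDS* (chr12:113860185-113876081, GRCh37, plus strand). Its level was 9.88 and 9.99 RPKM in EV, 5.98 and 6.93 RPKM in TBX3iso1, and 6.64 and 8.56 RPKM in TBX3iso2. The EV libraries were the highest, followed by the second TBX3iso2 library, and the isoform lines overlapped. The mean was 1.54-fold lower in TBX3iso1 and 1.31-fold lower in TBX3iso2. The log2 fold change with TBX3iso2, -0.39, was -0.21 without the first TBX3iso2 library and -0.57 without the second. In GENCODE v44lift37 the spans of *SDS* and *SDSL* overlap by 3922 bases on opposite strands, and other annotations may place the ends elsewhere. The libraries were stranded, but the annotation counted on, and whether counting used strand, are not given in the sources used here. If the spans counted did overlap, reads from the overlap could have gone to either gene. The *SDS* to *SDSL* ratio within a library was 0.717 and 1.01 in EV, 0.023 and 0.0295 in TBX3iso1, and 0.032 and 0.019 in TBX3iso2. The pair therefore stood at similar levels in EV and far apart in every TBX3 library. *SDS* was chosen for its low TBX3 levels, so nothing is read from that gap.

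**Figure D2:**
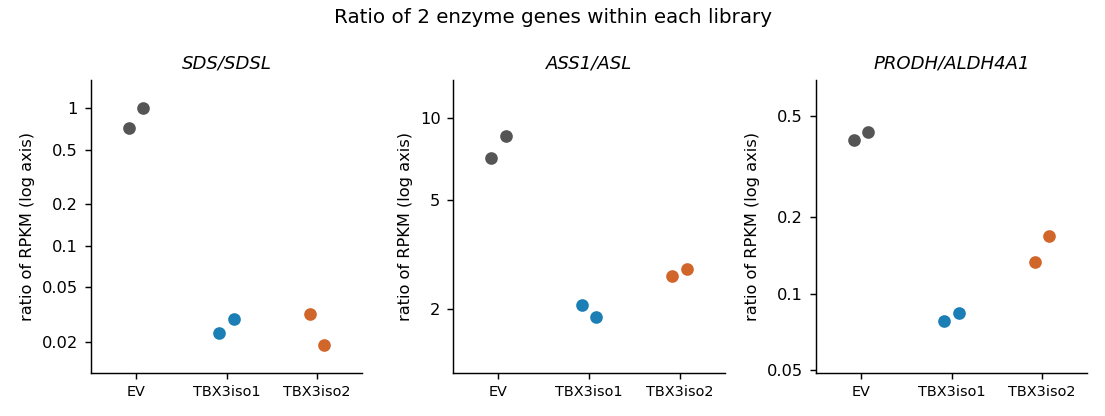
Ratio of RPKM (log axis) of *SDS* to *SDSL*, *ASS1* to *ASL* and *PRODH* to *ALDH4A1* in each of the 6 libraries, 1 point each. All 3 ratios are highest in both EV libraries, and the *ASS1* to *ASL* and *PRODH* to *ALDH4A1* ratios are higher in TBX3iso2 than in TBX3iso1. *SDS* and *ASS1* were chosen for their low TBX3 levels, so nothing is read from the height of their ratios in EV.

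*TBX3* itself lies on the minus strand of the same chromosome, with 1244 and 1232 kb between its annotated span and those of *SDS* and *SDSL*. Within 250 kb of the pair, 7 further genes were tested and 3 (*CFAP73*, *LHX5* and *LHX5-AS1*) were too low to test. *TPCN1*, a lysosomal cation channel gene, had log2 fold changes of -0.75 with both isoforms (limma, adjusted p = 0.00104 and 0.000998). The long non-coding RNA *LINC01234* had -1.51 and -1.82 (adjusted p = 0.00015 and 6.46e-05). *IQCD* fell with TBX3iso1 only, by 1.45 on the log2 scale (adjusted p = 4.42e-05), and its difference between the isoforms was 1.32 (adjusted p = 0.000348). *PLBD2*, the nearest tested gene on the far side of *SDS* from *SDSL*, had -0.47 (adjusted p = 0.162) and -0.83 (adjusted p = 0.028), and its libraries varied widely: it was called with TBX3iso1 without the first TBX3iso1 library (-0.75), and not called with TBX3iso2 without either EV library (-0.73 and -0.94) or the second TBX3iso2 library (-0.48). *DDX54*, *RITA1* and *SLC8B1* did not pass the threshold in either comparison with EV, with values between -0.06 and 0.26. None of these neighbours came near the -4.99 and -4.90 of *SDS*. Those values ranked 2 and 3 from the lowest of 12805 genes tested and led to its choice, so nothing is read from this.

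**Figure D3:**
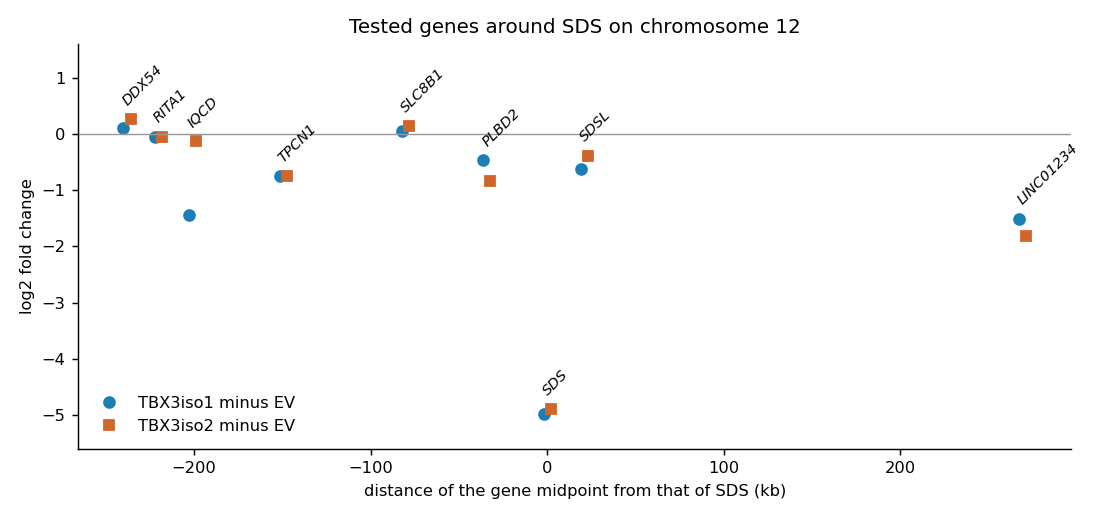
Log2 fold change of TBX3iso1 (circles) and TBX3iso2 (squares) against EV for the tested genes around *SDS* on chromosome 12, by distance of the gene midpoint from that of *SDS* in kb. *SDS* lies near -5 with both isoforms, and the next lowest gene, *LINC01234*, lies at -1.51 and -1.82.

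*ASS1* encodes argininosuccinate synthetase, which joins citrulline and aspartate and is the rate-limiting step of arginine synthesis. It was the most highly expressed of the 9 in EV, at 58.6 and 61.3 RPKM, against 18.1 and 20.1 RPKM in TBX3iso1 and 26.2 and 28.4 RPKM in TBX3iso2. The 3 lines did not overlap, with TBX3iso1 lowest and TBX3iso2 between it and EV. The mean was 3.14-fold lower in TBX3iso1 and 2.2-fold lower in TBX3iso2. It stayed a well expressed gene, with 91.9% of the tested genes below it in EV, 73.4% in TBX3iso1 and 80.0% in TBX3iso2. The difference between the isoforms was not used in the choice of genes and could be tested: *ASS1* was higher in TBX3iso2 by 0.51 on the log2 scale (95% interval 0.32 to 0.70, limma, adjusted p = 0.00757, in all 4 library pairs), which is under the 1.5-fold threshold. Of all genes tested, 14.8% had an adjusted p under 0.05 in that comparison. Leaving out single libraries moved that adjusted p between 0.00731 and 0.0378, and without moderation of the variances it was 0.0858.

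The gene lies on the plus strand of chromosome 9 (chr9:133320348-133376661, GRCh37). Its pseudogenes are numerous, 14 in the annotation and 0 in the RPKM table, and their reads may have been counted at *ASS1* where alignments were shared. RefSeq gives *ASS1* a pair of adjacent starts, and the 250 bases before each are shown because *ASS1* is the other gene on which the choice rested. On GRCh38.p14 these are chr9:130444457-130444706 and chr9:130444711-130444960, plus strand, with capitals marking GC boxes (GGGCGG or its complement CCGCCC), an E-box (CACGTG) and overlapping TATA letters (TTATAA).
ASS1 first start: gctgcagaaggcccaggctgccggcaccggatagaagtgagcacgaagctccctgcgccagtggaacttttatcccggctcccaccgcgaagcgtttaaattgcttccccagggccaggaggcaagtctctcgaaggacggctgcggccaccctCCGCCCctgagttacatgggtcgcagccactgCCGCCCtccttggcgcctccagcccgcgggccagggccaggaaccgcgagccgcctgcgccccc
ASS1 second start: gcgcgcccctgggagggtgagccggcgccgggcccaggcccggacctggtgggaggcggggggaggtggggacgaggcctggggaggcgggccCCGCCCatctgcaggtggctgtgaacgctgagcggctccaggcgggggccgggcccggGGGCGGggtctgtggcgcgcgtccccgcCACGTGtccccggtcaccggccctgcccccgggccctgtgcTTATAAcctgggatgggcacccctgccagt
The first window had a GC content of 68.4% with 2 GC boxes. The second had 78.8%, with 2 GC boxes, 1 E-box and the TATA letters near its 3′ end. The T-box core was absent from both, as it was from all 12 windows of the 7 members that RefSeq promoters were matched to. *SDSL* and *PRODH* had no entry. A match is a description of letters and no site, and an absent match says nothing of binding elsewhere.

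*ASL* encodes argininosuccinate lyase, which splits the product of *ASS1* into arginine and fumarate (chr7:65540787-65559684, GRCh37, plus strand). Its level was 8.25 and 7.12 RPKM in EV, 8.81 and 10.7 RPKM in TBX3iso1, and 9.88 and 10.1 RPKM in TBX3iso2. The EV libraries were the lowest, the first of them just under the lowest TBX3iso1 library, and the isoform lines overlapped. The ratio of the means to EV was 1.27 and 1.3, against a log2 fold change of 0.34 and 0.38 with a standard error of 0.117 each. With TBX3iso1 it was 0.48 without the first TBX3iso1 library and 0.20 without the second. Adjacent steps of the pathway thus stood on opposite sides of EV, though the side of *ASS1* was part of the choice of genes. The *ASS1* to *ASL* ratio was 7.1 and 8.61 in the EV libraries, 2.06 and 1.87 in TBX3iso1, and 2.65 and 2.8 in TBX3iso2. *ASS1* remained the higher of the pair in every library. Of the enzymes on either side, *CPS1*, which makes carbamoyl phosphate, was too low to test. Its means were 0.357, 0.223 and 0.549 RPKM in EV, TBX3iso1 and TBX3iso2. The annotation holds 1 *ASL* pseudogene, with 0 in the RPKM table.

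*PRODH* encodes the mitochondrial enzyme that begins proline breakdown by oxidising proline to pyrroline-5-carboxylate (chr22:18900290-18924066, GRCh37, minus strand). Its level was 2.76 and 2.82 RPKM in EV, 0.254 and 0.293 RPKM in TBX3iso1, and 0.515 and 0.615 RPKM in TBX3iso2. The lines formed 3 separate steps, with EV highest and TBX3iso1 lowest. The mean was 10.2-fold lower in TBX3iso1 and 4.94-fold lower in TBX3iso2, and 24.6%, 0.32% and 3.09% of the tested genes lay below it in EV, TBX3iso1 and TBX3iso2. Genes under the filter in all 3 lines were not tested, so the low shares in the TBX3 lines are partly set by the filter. The level of *PRODH* came to 150 and 122 reads per kb of transcript in EV, 13.0 and 14.7 in TBX3iso1, and 26.2 and 26.6 in TBX3iso2. The annotation holds 1 *PRODH* pseudogene, with 0 in the RPKM table, and reads from it may weigh most at these low levels. *PRODH* was the 1 gene of the 9 differentially expressed between the isoforms (fold change over 1.5 and adjusted p under 0.05), and 6.29% of all genes tested were, 3.47% with the higher level in TBX3iso2 and 2.82% in TBX3iso1. That split depended on the scaling, at 444 against 361 genes here and 351 against 440 with median-ratio scaling, while *PRODH* stayed higher in TBX3iso2 (0.79). It was higher in TBX3iso2 by 0.83 on the log2 scale (standard error 0.158, 95% interval 0.46 to 1.20, limma, adjusted p = 0.014), with a ratio of means of 2.06 and all 4 library pairs in that direction. The call did not hold in every fit: the adjusted p was 0.0512 and 0.0511 without the first and second EV library, 0.0627 without the first TBX3iso1 library and 0.0689 without moderation. Over the alternatives it ranged from 0.00659 to 0.0689, and the difference from 0.30 with a pseudocount of 1 RPKM to 1.02 with 0.01 RPKM.

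*ALDH4A1* encodes the dehydrogenase that follows in the same route and turns the pyrroline-5-carboxylate product into glutamate (chr1:19197924-19229218, GRCh37, minus strand). Its level was 6.88 and 6.52 RPKM in EV, 3.25 and 3.48 RPKM in TBX3iso1, and 3.87 and 3.65 RPKM in TBX3iso2. EV was the highest, and the TBX3iso2 libraries lay just above those of TBX3iso1 without overlap. The mean was 1.99-fold lower in TBX3iso1 and 1.78-fold lower in TBX3iso2. Both enzymes of proline breakdown were thus lower, *PRODH* the more so. The *PRODH* to *ALDH4A1* ratio was 0.401 and 0.433 in EV, 0.0783 and 0.0843 in TBX3iso1, and 0.133 and 0.169 in TBX3iso2.

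*GLUL* encodes glutamine synthetase, which fixes ammonia onto glutamate (chr1:182347233-182361341, GRCh37, minus strand). Its level was 15.5 and 14.8 RPKM in EV, 8.79 and 8.18 RPKM in TBX3iso1, and 10.1 and 9.36 RPKM in TBX3iso2, with no overlap between any of the lines. The mean was 1.79-fold and 1.56-fold lower than in EV. The annotation holds 4 *GLUL* pseudogenes, of which 0 are in the table.

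*ALDH5A1* encodes succinic semialdehyde dehydrogenase, the last step in the breakdown of the transmitter GABA to succinate (chr6:24495095-24537435, GRCh37, plus strand). Its level was 4.95 and 4.71 RPKM in EV, 2.41 and 2.16 RPKM in TBX3iso1, and 2.24 and 2.43 RPKM in TBX3iso2. EV stood above both isoform lines, which overlapped. The mean was 2.11-fold and 2.07-fold lower, and the log2 difference between the isoforms was 0.03 with a 95% interval of -0.22 to 0.29 (adjusted p = 0.879). The GABA transaminase *ABAT*, which acts just before *ALDH5A1*, fell with both isoforms, from 1.72 ± 0.075 RPKM to 0.467 ± 0.035 RPKM and 0.632 ± 0.0345 RPKM. Its log2 fold changes were -1.68 and -1.31 (limma, adjusted p = 0.000139 and 0.000414).

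*AADAT* encodes the mitochondrial aminotransferase of 2-aminoadipate and kynurenine, in lysine and tryptophan breakdown (chr4:170981373-171012850, GRCh37, minus strand). It had the lowest EV level of the 9, at 1.09 and 1.27 RPKM, against 1.93 and 1.77 RPKM in TBX3iso1 and 2.57 and 2.93 RPKM in TBX3iso2. The lines formed 3 separate steps, with EV lowest and TBX3iso2 highest. The ratio of the means to EV was 1.57 in TBX3iso1 and 2.33 in TBX3iso2. *AADAT* was higher in TBX3iso2 than in TBX3iso1 by 0.54 on the log2 scale (95% interval 0.23 to 0.86, limma, adjusted p = 0.0354), under the 1.5-fold threshold. Over the alternatives that adjusted p ranged from 0.0169 to 0.144, and without the first TBX3iso2 library the difference was 0.64 and passed both thresholds.

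Between the isoforms, 5 of the 9 genes (*ASS1*, *AADAT*, *GLUL*, *ALDH4A1* and *PRODH*) were higher in both TBX3iso2 libraries than in both TBX3iso1 libraries, and 33.4% of all genes tested were. For *GLUL* the log2 difference was 0.19 (95% interval 0.00 to 0.38, adjusted p = 0.158). For *ALDH4A1* it was 0.16 (-0.06 to 0.38, adjusted p = 0.314). *SDSL* had 0.22 (-0.08 to 0.53, adjusted p = 0.296) and *ASL* 0.04 (-0.23 to 0.31, adjusted p = 0.858). With 2 libraries a line, these intervals leave room for moderate differences, and a missed threshold does not show equal levels.

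**Figure D4:**
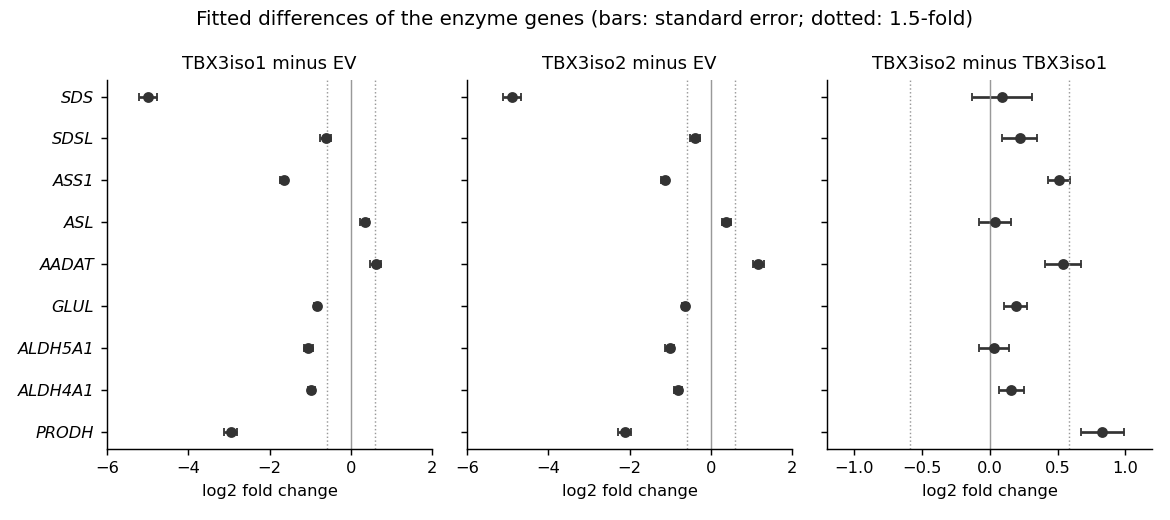
Fitted log2 fold change of each enzyme gene with its standard error for TBX3iso1 minus EV, TBX3iso2 minus EV and TBX3iso2 minus TBX3iso1, with dotted lines at 1.5-fold; the last panel has a narrower axis. The comparisons with EV share the EV libraries; *SDS* lies near -5 in both, and in the last panel *PRODH* alone lies past the 1.5-fold line.

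The 9 genes had median log2 fold changes of -0.97 in TBX3iso1 and -0.82 in TBX3iso2. The low levels of *SDS* and *ASS1* led to the choice of genes, so these medians are a description and nothing is read from their distance to others. All genes tested had medians of -0.05 and -0.00. A list of 109 other symbols from the same pathways held 96 genes of the table, of which 70 were tested, and their medians were -0.22 and -0.11. With TBX3iso1, 4 of the 70 rose and 20 fell, which is 34.3% of the list. Of all genes tested 21.5% were called in that comparison, 7.46% higher and 14.1% lower (955 and 1802 genes, or 1259 and 1313 with quantile normalization). With TBX3iso2, 7 rose and 11 fell, which is 25.7%, and of all genes 21.2% were called, 8.94% higher and 12.3% lower (1145 and 1575 genes, or 1315 and 1338 with quantile normalization). Between the isoforms, 4 were higher in TBX3iso2 and 0 lower, which is 5.71% against 6.29%.

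Breakdown of the branched-chain amino acids and of their shared intermediates was the longest of these lists, with 20 genes tested. With TBX3iso1, 1 rose and 6 fell, and with TBX3iso2 likewise 1 rose and 6 fell, 5 of them with both isoforms. That is 35.0% called in each comparison, against 21.5% and 21.2% of all genes tested. The comparisons share the EV libraries, and the share of all genes lower with both was not computed. *ALDH6A1*, the methylmalonate semialdehyde dehydrogenase of valine breakdown, went from 7.57 ± 0.301 RPKM in EV to 2.15 ± 0.253 RPKM and 2.62 ± 0.286 RPKM (log2 fold change -1.77 and -1.50, adjusted p = 5.01e-05 and 0.000107). *BCKDHA*, a subunit of the branched-chain ketoacid dehydrogenase, had -0.85 and -1.02, and *PCCA*, of propionyl-CoA carboxylase, had -0.95 and -0.84. *AUH*, the hydratase of leucine breakdown, had -0.66 with each, close to the threshold. The call with TBX3iso1 was lost without the first TBX3iso1 library (-0.56) and with median-ratio scaling (-0.58). With quantile normalization (-0.46 and -0.50) and with a pseudocount of 1 RPKM (-0.50 each) the calls with both isoforms were lost. *HIBCH*, a hydrolase earlier in valine breakdown than *ALDH6A1*, rose by 0.68 and 1.04.

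Around serine, 11 genes were tested, and 5 fell with TBX3iso1 (*CBS*, *CTH*, *SRR*, *SHMT1* and *PSPH*). With TBX3iso2, 1 passed the threshold (*CTH*). The shares called were 45.5% and 9.09%, against 21.5% and 21.2% of all genes tested. *SHMT1* and *PSPH* lay at the edge of the threshold with TBX3iso1, at -0.64 and -0.63, and lost their calls with median-ratio scaling (-0.56 and -0.55). They had -0.46 and -0.28 with TBX3iso2, and their differences between the isoforms, 0.18 (adjusted p = 0.183) and 0.35 (adjusted p = 0.028), stayed under 1.5-fold. *CBS*, which condenses serine with homocysteine, was at 13.9 ± 0.539 RPKM in EV, 5.78 ± 0.443 RPKM in TBX3iso1 and 13.0 ± 1.05 RPKM in TBX3iso2. It fell by 1.26 on the log2 scale with TBX3iso1 (adjusted p = 6.76e-05), and the difference between the isoforms was 1.15 (adjusted p = 0.000536). *CTH*, which follows in the same route to cysteine, had -1.12 and -1.15 (adjusted p = 0.000966 and 0.000792). *SRR*, serine racemase, had -0.71 and -0.01, with a difference between the isoforms of 0.70 (adjusted p = 0.0196). That difference lost its call without any 1 of the EV or TBX3iso1 libraries or the second TBX3iso2 library (0.55 to 0.71). The call against EV was lost without the second EV library (-0.63), with quantile normalization (-0.50), with a pseudocount of 1 RPKM (-0.45) and without moderation. Of the enzymes that make serine, *PHGDH* had -0.48 and -0.49 (adjusted p = 0.00535 and 0.00497, under 1.5-fold, and past it with TBX3iso2 at -0.61 without the second TBX3iso2 library) and *PSAT1* had 0.01 and 0.27. No other serine enzyme named here had a difference as large as that of *SDS*. Since *SDS* was chosen for that difference, nothing is read from the contrast.

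Around arginine, ornithine and proline, the tested genes went both ways. *GATM*, which uses arginine to make the creatine precursor, fell with both isoforms, from 7.92 ± 0.0584 RPKM to 2.92 ± 0.148 RPKM and 3.47 ± 0.0815 RPKM (log2 fold change -1.41 and -1.17, adjusted p = 3.63e-05 and 8.14e-05). *ARG2*, mitochondrial arginase, had -0.80 with TBX3iso1 (adjusted p = 0.00155) and 0.19 with TBX3iso2 (adjusted p = 0.244), and 0.99 between them (adjusted p = 0.00276). *PYCR1*, which runs from pyrroline-5-carboxylate back to proline, rose by 1.04 and 0.75 (adjusted p = 0.000149 and 0.000626), opposite in direction to *PRODH*. *OAT*, ornithine aminotransferase, had -0.26 and -0.12 and stayed under 1.5-fold. The polyamine enzyme *ODC1* rose by 0.69 and 0.95, while *SAT1*, which acetylates polyamines for their breakdown, had -1.12 and -0.86. *OTC* and *ARG1* were not found under these symbols in the RPKM table.

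Of 9 lysine and tryptophan genes tested, 3 fell with TBX3iso1 (*DHTKD1*, *KYNU* and *CCBL1*) and 1 rose with TBX3iso2 (*AASS*). These shares, 33.3% and 11.1%, stand beside 21.5% and 21.2% of all genes tested. *CCBL1* (-0.64) lost its call without the first EV library (-0.54) and gained one with TBX3iso2, from -0.54 to -0.64, without the second. Its call with TBX3iso1 was also lost with median-ratio scaling (-0.56), quantile normalization (-0.43) and a pseudocount of 1 RPKM (-0.47). *AASS* (0.68) lost its call without either EV library (0.59 and 0.78), with a pseudocount of 1 RPKM (0.37) and without moderation. *KYNU*, which splits kynurenine, a substrate of *AADAT*, had -0.82 with TBX3iso1 (adjusted p = 0.00193) and -0.14 with TBX3iso2 (adjusted p = 0.425), with 0.69 between the isoforms (adjusted p = 0.0137). Without the first TBX3iso1 library the latter was 0.51, under 1.5-fold. Of 6 genes of aromatic, histidine and sulphur amino acids, *CSAD*, of taurine synthesis, had -0.60 and -0.66. The first call was lost without either EV library or the second TBX3iso1 library (-0.61, -0.58 and -0.44). The second was lost without the second EV library (-0.65). Median-ratio scaling also removed the first (-0.52). Both were lost with quantile normalization (-0.41 and -0.51), with a pseudocount of 1 RPKM (-0.46 and -0.51) and without moderation. *GLUD1*, glutamate dehydrogenase, stood at 20.0, 19.7 and 20.6 RPKM in the 3 lines, though reads of the near-identical *GLUD2* may have been shared.

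**Figure D5:**
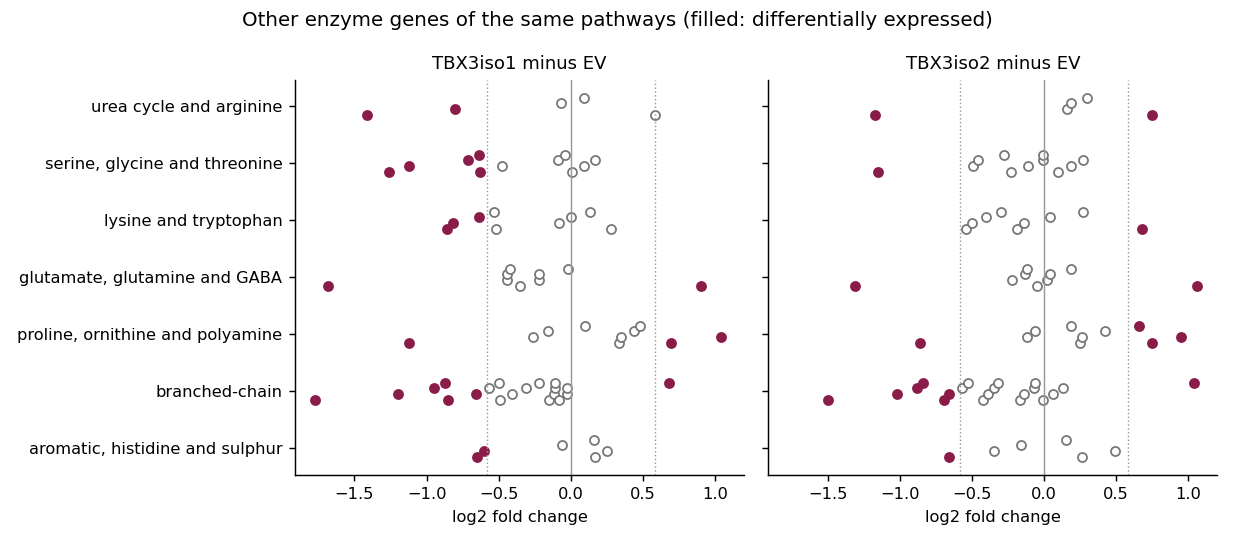
Log2 fold change of the 70 other tested enzyme genes by pathway list, for TBX3iso1 and TBX3iso2 against EV; filled points were differentially expressed and dotted lines mark 1.5-fold. Filled points lie mostly below 0 with TBX3iso1 (20 of 24), with the branched-chain list holding 6 of them in each panel. Of all genes called with TBX3iso1, 1802 of 2757 were lower.

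The genes whose log2 values over the 6 libraries followed *SDS* most closely, by Euclidean distance after centring, were *IP6K3* (0.709), *GDF15* (0.902), *SNORD5* (1.42), *FGB* (1.45) and *CD36* (1.49). *IP6K3* was at 6.28 ± 0.246 RPKM in EV, 0.114 ± 0.0226 RPKM in TBX3iso1 and 0.169 ± 0.0651 RPKM in TBX3iso2. *GDF15*, a secreted stress-induced member of the TGF-β family, was at 78.3 ± 8.04, 2.77 ± 0.276 and 3.57 ± 0.695 RPKM. Nearest to *ASS1* were *ALDH3A1* (0.183), *ACSF2* (0.224), *ALPK1* (0.234), *RCAN1* (0.24) and *TM7SF2* (0.266). *FUBP3*, *EXOSC2* and *ABL1*, the tested neighbours of *ASS1* within 250 kb, did not pass the threshold with either isoform.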

How the data were processed

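Poly(A) RNA of the 21NT lines was sequenced by RNA-Seq. Alignment to hg19 was done by the authors with TopHat and quantification in Partek, per the paper's methods and the submitters' processing notes, and they deposited RPKM on the linear scale with the number of alignments of each library. Versions and the gene annotation are not given in the sources used here. Multiple alignments per read were allowed, which may add reads of pseudogenes and paralogs to a gene. No gene counts were at hand, so no count model was run; RPKM multiplied by the alignments of the library gave reads per kb of transcript as a measure of depth.

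RPKM values were taken to log2 after adding a pseudocount of 0.1, so fold changes of low genes such as *SDS* are understated on that scale. Genes averaging 0.5 RPKM or more across the 6 libraries (12805) were fitted with limma 3.58.1 (R 4.3.3), with 1 mean per line, trended empirical Bayes moderation and Benjamini-Hochberg adjustment over all genes tested. Differential expression meant a fold change over 1.5 with an adjusted p below 0.05. The fit was tested on simulated data with independent noise in each library. Such data hold no effect shared by the libraries of a line, so that test says nothing of the p-values where one exists. Comparisons were TBX3iso1 and TBX3iso2 each against EV, which share the EV libraries, and TBX3iso2 against TBX3iso1. The members were tested only in the last. Intervals are 95% intervals of the fit, unadjusted.

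The members and all gene lists were chosen with earlier results of these data known. Genes named beside the members are those on the pathway lists that passed the threshold with both isoforms in the same direction or between the isoforms, up to 25 by size, the enzymes of adjacent steps, genes within 250 kb of *SDS*, *SDSL* and *ASS1*, and the 5 genes most like *SDS* and *ASS1*. *SHMT1*, *PSPH*, *DHTKD1*, *CCBL1* and *AASS* fall outside this rule and were named after their values were seen. A few genes within the rule are not reported here. Gene positions are from GENCODE v44lift37 (GRCh37) and promoter sequences from RefSeq (GRCh38.p14), in which 7 of the 9 symbols were found. The alternatives tried were other pseudocounts, filters, scalings and variance models, a replicate block and leaving out each library. With 2 libraries a line, a permutation test cannot reach the threshold and was not run.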

Additional observations from a re-analysis of the deposited data

Results flagged for a closer look

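For each of these genes the differences of the TBX3iso1 and TBX3iso2 lines from the same EV libraries were unlike in the fit described above. Isoform, *TBX3* level and pool of clones cannot be told apart in them. The test was limma's of TBX3iso2 minus TBX3iso1, and most of these calls were lost in some of the alternatives below. *PRODH* was lower than EV with both isoforms and less so with TBX3iso2, the isoforms differing by 0.83 on the log2 scale (adjusted p = 0.014). *CBS* was lower with TBX3iso1 and near the EV level with TBX3iso2, a difference of 1.15 (adjusted p = 0.000536). *ARG2* showed a difference of 0.99 (adjusted p = 0.00276), *SRR* of 0.70 (adjusted p = 0.0196) and *KYNU* of 0.69 (adjusted p = 0.0137), each again higher in both TBX3iso2 libraries than in both TBX3iso1 libraries.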

How the results depend on the processing

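The members' median log2 fold change against EV is a description, since the choice of genes shaped it. For TBX3iso1 it was -0.82 with a pseudocount of 1 RPKM and -0.83 with quantile normalization. For TBX3iso2 it was -0.69 with a pseudocount of 1 RPKM. Leaving out 1 library at a time gave -1.01 to -0.93 and -0.86 to -0.77. The count of members called between the isoforms, 1, became 0 with a pseudocount of 1 RPKM, a filter at a mean of 2 RPKM (which drops *PRODH* and *AADAT*), no moderation or only the lines compared, and 0 to 2 with a library left out. The added call was *AADAT*, at 0.64 (adjusted p = 0.0343) without TBX3iso2 replicate 1. The other pathway genes called between the isoforms numbered 7 without the filter, 1 without moderation and 2 to 5 with a library left out; their counts against EV were then 22 to 24 and 17 to 19. Under median-ratio scaling and under quantile normalization the pathway calls with TBX3iso1 were 5 higher and 14 lower, against 4 and 20.

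Signs near 0 turned. With a library left out, the difference between the isoforms ranged from -0.09 to 0.27 for *SDS*, -0.10 to 0.18 for *ASL* and -0.04 to 0.11 for *ALDH5A1*, and the difference from EV ranged from -0.16 to 0.14 for *SRR* with TBX3iso2, and from -0.09 to 0.04 for *GLUD1* and -0.01 to 0.04 for *PSAT1* with TBX3iso1. Median-ratio scaling gave -0.01 for *ASL* and -0.02 for *ALDH5A1* between the isoforms, 0.02 for *SRR* with TBX3iso2 and 0.06 for *GLUD1* with TBX3iso1. Quantile normalization gave -0.02 for *ASL* and -0.01 for *ALDH5A1* between the isoforms, and 0.16 for *SRR* and -0.01 for *GLUD1* with TBX3iso2. The cause was not tested.

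Calls over all genes with TBX3iso1 fell from 2757 to 1812 with a pseudocount of 1 RPKM. Calls between the isoforms fell from 805 to 419, to 504 with the filter at 2 RPKM and to 199 without moderation. Quantile normalization turned 955 higher and 1802 lower with TBX3iso1 into 1259 and 1313, 1145 and 1575 with TBX3iso2 into 1315 and 1338, and 444 higher and 361 lower between the isoforms into 351 and 435. No scaling moved the median of all genes by over 0.1.

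The labels do not say that replicates with the same number share a culture or a batch. Their deviations from the line means correlated at 0.22 (EV and TBX3iso1), 0.114 (EV and TBX3iso2) and 0.499 (both isoforms), and with 2 numbers a line this does not settle a pairing. The replicate block left medians of -0.97 and -0.82 and counts of 1, 24, 18 and 4. The call of *SRR* between the isoforms was lost in 9 alternatives, that of *PRODH* in 6, that of *KYNU* in 3 and that of *ARG2* in 1.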
